A study of Mus musculus with 17 samples.

Results

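C2C12 myoblasts carrying SRF-RELA were compared, over all measured genes, with C2C12 myoblasts carrying the empty retroviral vector pMSCV. C2C12 is a mouse cell line of skeletal muscle precursors. SRF-RELA joins serum response factor (SRF) to RELA, a subunit of NF-kappaB, and it is one of several SRF fusions expressed in the series. The comparison used 6 of the 17 RNA-seq libraries, 3 of SRF-RELA and 3 of pMSCV, chosen by their labels and joined by replicate number. A further 6 libraries, 3 of C2C12 with SRF itself and 3 with the fusion SRF-ICA1L, shared the estimate of the spread and served as reference lines. All groups were C2C12 grown in DMEM with 10% fetal bovine serum, a growth medium, and polyadenylated RNA was sequenced with a stranded kit. The labels give no promoter, no dose of virus and no statement on whether a line was a pool or 1 clone. They also do not say whether replicates were separate transductions, so p-values here measure only the spread between these libraries, which may in part be technical.

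SRF binds CArG boxes in DNA and works with different kinds of partner. Myocardin-related cofactors take it to genes of the contractile and actin cytoskeleton, and ternary complex factors take it to the immediate-early genes that answer serum. RELA is held in the cytoplasm by inhibitor proteins until a signal such as an inflammatory cytokine frees it, and its C-terminal part is a strong activator of transcription. In myoblasts, MYOD1 and MYF5 set the muscle identity, and MYOG with MEF2 factors switches on the genes of the sarcomere, the calcium-release machinery and the neuromuscular junction.

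The 6 libraries held between 20948439 and 22278138 counts each, and all 17 between 20901442 and 23543734. Same-numbered libraries of the 2 groups deviated together from their group means, with correlations across 12488 genes of 0.555 to 0.738, against 0.0948 at most for libraries with different numbers. The groups of the fit were kept because their numbers had paired in an earlier fit, so these values do not test the pairing. The myoblast markers were present in every pMSCV library, from 44.7 CPM for Myod1, 19.8 CPM for Myf5, 477 CPM for Des and 205 CPM for Cdh15 upward. CPM, read counts divided by the TMM-scaled library size, carry no correction for gene length, so they compare libraries and not genes. Markers of macrophages, endothelial cells, epithelial cells, adipocytes, osteoblasts, tenocytes and neurons were checked, and none was called. Few were in the table: 3 of 6 macrophage, 2 of 5 endothelial, 1 of 5 epithelial, 4 of 6 adipocyte, 3 of 6 osteoblast, 2 of 4 tenocyte and 2 of 5 neuron markers. The neuron pair, Tubb3 and Stmn2, summed to 189 to 421 CPM in pMSCV and 53.4 to 216 CPM in SRF-RELA, with median log2 differences of -1.81, -1.34 and 0.16 in pairs 1 to 3. Tenocyte markers summed to 48.2 to 58.1 CPM and 51.9 to 75.2 CPM, with all pair medians above 0 (0.43, 0.63 and 1.14). The epithelial keratin gene Krt14 ranged from 1.79 to 37.1 CPM in pMSCV and from 4.70 to 54.2 CPM in SRF-RELA, also higher in each pair. Endothelial markers stayed under 2.8 CPM in sum in every library, and macrophage markers summed to 17.3 to 22.1 CPM in pMSCV and 16.4 to 25.3 CPM in SRF-RELA. Adipocyte and osteoblast markers had medians of 0.14 and 0.16. The part of these markers in the results was not tested. The defining endothelial markers Pecam1 and Kdr and the epithelial markers Epcam and Cdh1 were not among the genes of the table.

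SRF-RELA cells expressed many genes of the muscle programme at lower levels than the empty-vector cells. A few smooth muscle, matrix, immediate-early and chemokine genes stood at higher levels. With the replicate number as a block, edgeR's quasi-likelihood test called 914 of 15062 genes (6.07%) at an adjusted p under 0.05. Of these, 430 were higher in SRF-RELA (2.85%) and 484 were lower (3.21%). Among the higher genes, 60 lay in a stretch of chromosome 8 that was chosen after values were seen and is described at the end. The change was at least 2-fold for 209 of the higher and 298 of the lower genes. SRF-RELA lay on the same side of pMSCV in all 3 same-numbered pairs for 911 of the 914 genes, and the 2 groups did not overlap for 591 of them. Genes that pass the blocked test tend to have both traits, and their shares over all genes were not counted. These 2 counts therefore describe the called genes and add no evidence to the calls. These calls rest on the block and on which libraries share the fit. Without the block edgeR called 0 genes in the same 12 libraries (1378 genes at an unadjusted p under 0.05, lowest adjusted p = 0.0532). With the block, edgeR called 471 genes in the 6 libraries compared and 0 in all 17 (1812 at an unadjusted p under 0.05, lowest adjusted p = 0.114). Of 72 called genes named by rule, 53 were also called in the 6 libraries. The other 19, with edgeR adjusted p of 0.0505 to 0.285 there, included Col2a1, Lmod1, Tagln, Myh3, Chrna1, Cacna1s, Casq2, Msc, Hmcn1, Ankrd44, Wnt4, Zfp36, Csf1, Nfkbid, Tnxb, Nog, Nlrc5 and Nrg1. They also rest on replicate 1: edgeR called 238 genes without SRF-RELA replicate 1, 305 without pMSCV replicate 1, and 1 when replicate number 1 was left out of all 4 groups. A core of 184 genes, 83 higher and 101 lower, was called in each of the 6 fits that left out one pMSCV or SRF-RELA library. Its higher genes held no member of the smooth muscle, immediate-early or NF-kappaB target lists, the last of which holds the called chemokines. Of the matrix list, Col12a1 and Lox were among them.

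**Figure D1:**
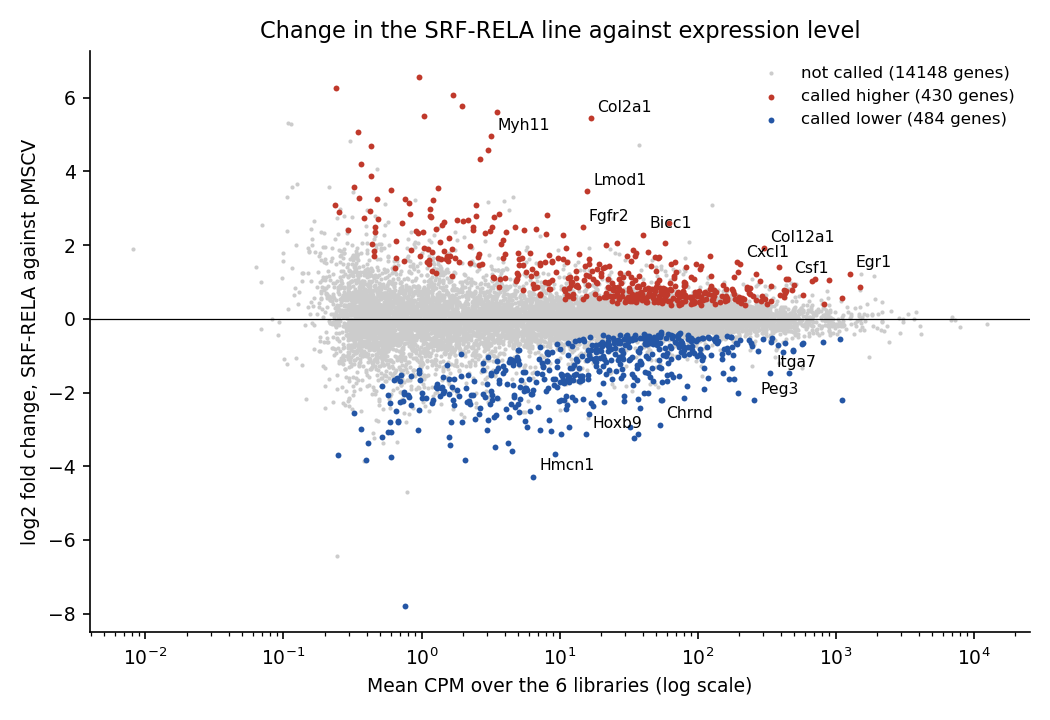
Each point is 1 of 15062 genes, with the mean CPM over the 3 pMSCV and 3 SRF-RELA libraries on a log axis and the log2 fold change of SRF-RELA against pMSCV on the vertical axis; red and blue mark the 430 genes called higher and the 484 called lower. Among the labelled genes Col2a1 (5.44) and Myh11 (4.96) lie highest, and Hmcn1 (-4.28), Hoxb9 (-3.13) and Chrnd (-2.87) lie lowest. Some unlabelled called genes lie above Col2a1.

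Neither Srf nor Rela was called as changed in the SRF-RELA line. Srf (ENSMUSG00000015605, chr17:46548329-46556175 in GRCm38) stood at 66.2, 93.4 and 82.3 CPM in pMSCV replicates 1 to 3 and at 154, 135 and 84.5 CPM in SRF-RELA. The groups overlapped, and the difference of 0.55 on the log2 scale (SE 0.30) was not called (edgeR adjusted p = 0.332). In the line with SRF itself the same gene stood at 1660, 674 and 1019 CPM, far above every SRF-RELA library. Rela (ENSMUSG00000024927, chr19:5637483-5648130) lay at 81.7, 96.1 and 86.8 CPM in pMSCV and 80.6, 97.6 and 71.8 CPM in SRF-RELA, a log2 difference of -0.09 (SE 0.10, edgeR adjusted p = 0.665). Whether reads of the introduced construct count towards either mouse gene is not given in the sources used here. The level of the fusion was therefore not measured, and the label of the line was not checked by it.

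Regulators that define myoblasts were lower in SRF-RELA. In bulk RNA, fewer cells that express a gene and less RNA of it per cell cannot be told apart. Of 14 measured myogenic regulators, 5 fell (Myod1, Myf5, Myog, Mef2c and Msc), against 3.21% of all genes tested, and none rose. The median log2 fold change over the list was -0.27, against -0.00 over all genes tested. Myod1 (chr7:46376474-46379099), the master regulator of the lineage, stood at 60.7, 44.7 and 106 CPM in pMSCV and 13.2, 14.1 and 46.3 CPM in SRF-RELA. Replicate 3 was the highest library in both groups, so the groups just overlapped although each pair showed the fall. The fitted change was -1.70 (SE 0.20, edgeR adjusted p = 0.00295). Myf5, which acts beside it in proliferating myoblasts, fell from 32.0 ± 11.6 to 11.4 ± 3.46 CPM (mean ± SD, n = 3 each), a change of -1.49 (SE 0.21, edgeR adjusted p = 0.00391).

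Myog, the regulator that commits myoblasts to differentiate, stood at 10.9, 13.5 and 22.1 CPM in pMSCV and 0.976, 2.71 and 1.62 CPM in SRF-RELA. No SRF-RELA library came near the lowest pMSCV library, and the change was -3.05 (SE 0.48, edgeR adjusted p = 0.00694). Mef2c, a partner of the myogenic factors at muscle enhancers, went from 29.0, 15.7 and 19.0 CPM to 3.22, 4.02 and 6.49 CPM, a change of -2.21 (SE 0.30, edgeR adjusted p = 0.00386). These 4 genes were also called in each of the 6 fits that left out one library. Msc, which encodes musculin, was scarce (1.34 ± 0.63 CPM in pMSCV, SD, n = 3) and fell by 2.12 on the log2 scale. Among members that did not pass, Pax7, the satellite-cell factor, had a change of -1.11 (edgeR adjusted p = 0.15), and Six4, Id1, Id2, Id3 and Mef2d lay between -0.11 and 0.15.

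Genes of the muscle acetylcholine receptor and its clustering machinery were lower too. In this list 7 of 11 measured genes were called lower, against 3.21% of all genes tested, and none higher. The median was -1.51 (-2.21, -1.10 and -1.26 in pairs 1, 2 and 3). Chrnd (chr1:87190607-87200070), the delta subunit, had the lowest adjusted p of the comparison. It stood at 147, 73.8 and 60.1 CPM in pMSCV and 19.4, 10.5 and 8.12 CPM in SRF-RELA. The 3 pairs fell by a similar amount, and the fitted change was -2.87 (SE 0.20, edgeR adjusted p = 0.000342). Chrna1, the alpha subunit that binds the transmitter, went from 300, 142 and 397 CPM to 58.6, 93.6 and 109 CPM. Its change was -1.63 (SE 0.28, edgeR adjusted p = 0.00941), smallest in pair 2. Chrng, the gamma subunit of the fetal receptor, fell by 2.74 on the log2 scale (SE 0.62), and in SRF-RELA replicate 2 it kept 6.60 CPM against 0.879 and 0.603 CPM in the other two. Chrnb1, the beta subunit, fell by 1.68 (SE 0.22). Receptor clustering needs the kinase MUSK, its activator DOK7 and the scaffold rapsyn: Musk fell by 1.51 (SE 0.26), Dok7 fell by 1.93 (SE 0.41) and Rapsn fell by 1.12. Agrn and Lrp4, the nerve-side ligand and its receptor, had changes of -0.25 and -0.38 and were not called.

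The promoters of these genes are shown because the letters CAGCTG, an E-box of the kind that MYOD1 and MYOG bind, were frequent in the muscle genes. Promoter windows of 300 bases, 250 before and 50 after the start, came from RefSeq (GRCm38.p6) and were found for 673 of the 914 called genes. CAGCTG reads the same on both strands. Shares are of genes with a window, and a match in any window of a gene counted. It occurred in 18.2% of all such genes, in 17.7% of those called higher and in 28.7% of those called lower (99 of 345). In the sarcomere, synapse and coupling lists it occurred in 18 of 37 genes with a window (48.6%), and in 9 of the 17 called lower (52.9%). These shares describe the letters and do not show binding. For each gene below, a window with a match is shown. Those of Chrng and Tnni1 lie inside the annotated genes, which begin at 87204657 and 135779434. In Chrng the 2 matches begin 155 and 132 bases before the start, in Chrna1 92 and 44 bases before it, in Mybph 79 and in Tnni1 68. Each window is written 5′ to 3′ on the gene's strand with CAGCTG in capitals.
Chrng, chr1:87205561-87205860, plus strand: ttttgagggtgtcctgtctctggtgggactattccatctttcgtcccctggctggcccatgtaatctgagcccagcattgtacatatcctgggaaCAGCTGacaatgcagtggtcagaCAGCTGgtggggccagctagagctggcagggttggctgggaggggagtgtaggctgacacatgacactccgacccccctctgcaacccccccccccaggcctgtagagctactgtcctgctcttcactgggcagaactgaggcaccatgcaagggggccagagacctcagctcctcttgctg
Chrna1, chr2:73580289-73580588, minus strand: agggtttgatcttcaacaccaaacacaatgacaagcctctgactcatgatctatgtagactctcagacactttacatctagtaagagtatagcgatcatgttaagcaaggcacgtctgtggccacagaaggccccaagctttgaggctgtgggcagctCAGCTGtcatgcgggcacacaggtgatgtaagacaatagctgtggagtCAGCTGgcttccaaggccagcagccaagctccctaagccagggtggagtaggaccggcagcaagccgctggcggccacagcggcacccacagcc
Mybph, chr1:134193198-134193497, plus strand: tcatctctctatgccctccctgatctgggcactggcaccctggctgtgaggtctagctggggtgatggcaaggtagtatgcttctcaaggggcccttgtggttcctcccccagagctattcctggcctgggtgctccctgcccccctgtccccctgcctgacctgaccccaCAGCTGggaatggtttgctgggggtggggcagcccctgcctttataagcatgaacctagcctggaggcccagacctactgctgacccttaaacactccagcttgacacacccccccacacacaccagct
Tnni1, chr1:135799171-135799470, plus strand: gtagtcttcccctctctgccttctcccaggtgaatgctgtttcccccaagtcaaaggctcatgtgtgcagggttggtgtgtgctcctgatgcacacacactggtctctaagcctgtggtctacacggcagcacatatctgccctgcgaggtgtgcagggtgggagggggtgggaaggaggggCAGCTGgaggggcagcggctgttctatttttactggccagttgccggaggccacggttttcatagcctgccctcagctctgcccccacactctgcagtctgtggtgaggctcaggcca

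Genes of the contractile apparatus were also lower. Of 29 measured sarcomere genes, 10 were called lower, against 3.21% of all genes tested, and none higher. The median log2 fold change was -1.88. The pairs differed in size, with medians of -2.91 in pair 1, -0.65 in pair 2 and -2.70 in pair 3. Myh3, the embryonic myosin heavy chain, shows the pattern: 85.5, 40.8 and 73.7 CPM in pMSCV became 4.20, 15.7 and 2.97 CPM in SRF-RELA. SRF-RELA replicate 2 kept the most and pMSCV replicate 2 had the least, and the change was -3.13 (SE 0.64, edgeR adjusted p = 0.0223, but 0.214 in the fit of the 6 libraries). Mybph, a myosin-binding protein, had 5.13, 4.35 and 9.45 CPM in pMSCV and 0.146, 1.13 and 0.371 CPM in SRF-RELA, a change of -3.46 (SE 0.58, edgeR adjusted p = 0.00871). The troponin I genes of slow and fast fibres fell too, Tnni1 by a log2 change of -2.77 (SE 0.52) and Tnni2 by -2.93 (SE 0.65). Xirp1, an actin-binding protein of muscle adhesion sites, fell by 2.57 (SE 0.33) and was called in all 6 fits that left out one library, as was Myl4, an embryonic light chain. The other called members were Tnnc1, Myom2, Myom3 and Nrap. Several large genes of the list missed the threshold, such as Ttn (-1.78, edgeR adjusted p = 0.16), and the actins Acta1 (0.38) and Actc1 (0.92) and the creatine kinase Ckm (-0.50) were not called. Without SRF-RELA replicate 1 edgeR called 2 members lower, without SRF-RELA replicate 2 it called 22.

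The calcium-handling genes that couple excitation to contraction showed 8 of 17 called lower, against 3.21% of all genes tested, and none higher. The median was -1.69, with -2.30, -0.39 and -1.50 in pairs 1 to 3. EdgeR called 2 members lower without SRF-RELA replicate 1 and 2 without pMSCV replicate 1. It called 10 lower without SRF-RELA replicate 2, and 3 lower and 1 higher without SRF-RELA replicate 3. Cacng1, a subunit of the muscle calcium channel, stood at 67.8, 97.8 and 97.8 CPM in pMSCV and 10.98, 18.7 and 36.9 CPM in SRF-RELA. The groups were clearly apart, with a change of -2.19 (SE 0.25, edgeR adjusted p = 0.00256). The pore subunit Cacna1s fell by 3.01 (SE 0.61) from a low level of 1.67 ± 0.76 CPM (SD, n = 3). Atp2a1, the calcium pump of fast muscle, fell by 2.51 (SE 0.46), and the calcium store proteins Casq2 and Hrc fell by 2.12 (SE 0.46) and 2.79 (SE 0.60). Their widely expressed relatives did not pass: Atp2a2 had a change of -0.05 and Asph of -0.04. Cdh15 and Itga7, which hold myoblasts to each other and to laminin, were the 2 called of 11 fusion and adhesion genes. Cdh15 (chr8:122847966-122867397), M-cadherin, went from 345, 205 and 387 CPM to 55.0, 64.1 and 125 CPM, a change of -2.01 (SE 0.22, edgeR adjusted p = 0.00217). Itga7, the laminin receptor of muscle, fell from a mean of 493 ± 73.4 to 179 ± 22.4 CPM (SD, n = 3 each), a change of -1.47 (SE 0.18, edgeR adjusted p = 0.00295). The fusogen genes Mymk (-2.54) and Mymx (-2.80) had adjusted p values of 0.050 and 0.056 and were not called.

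**Figure D2:**
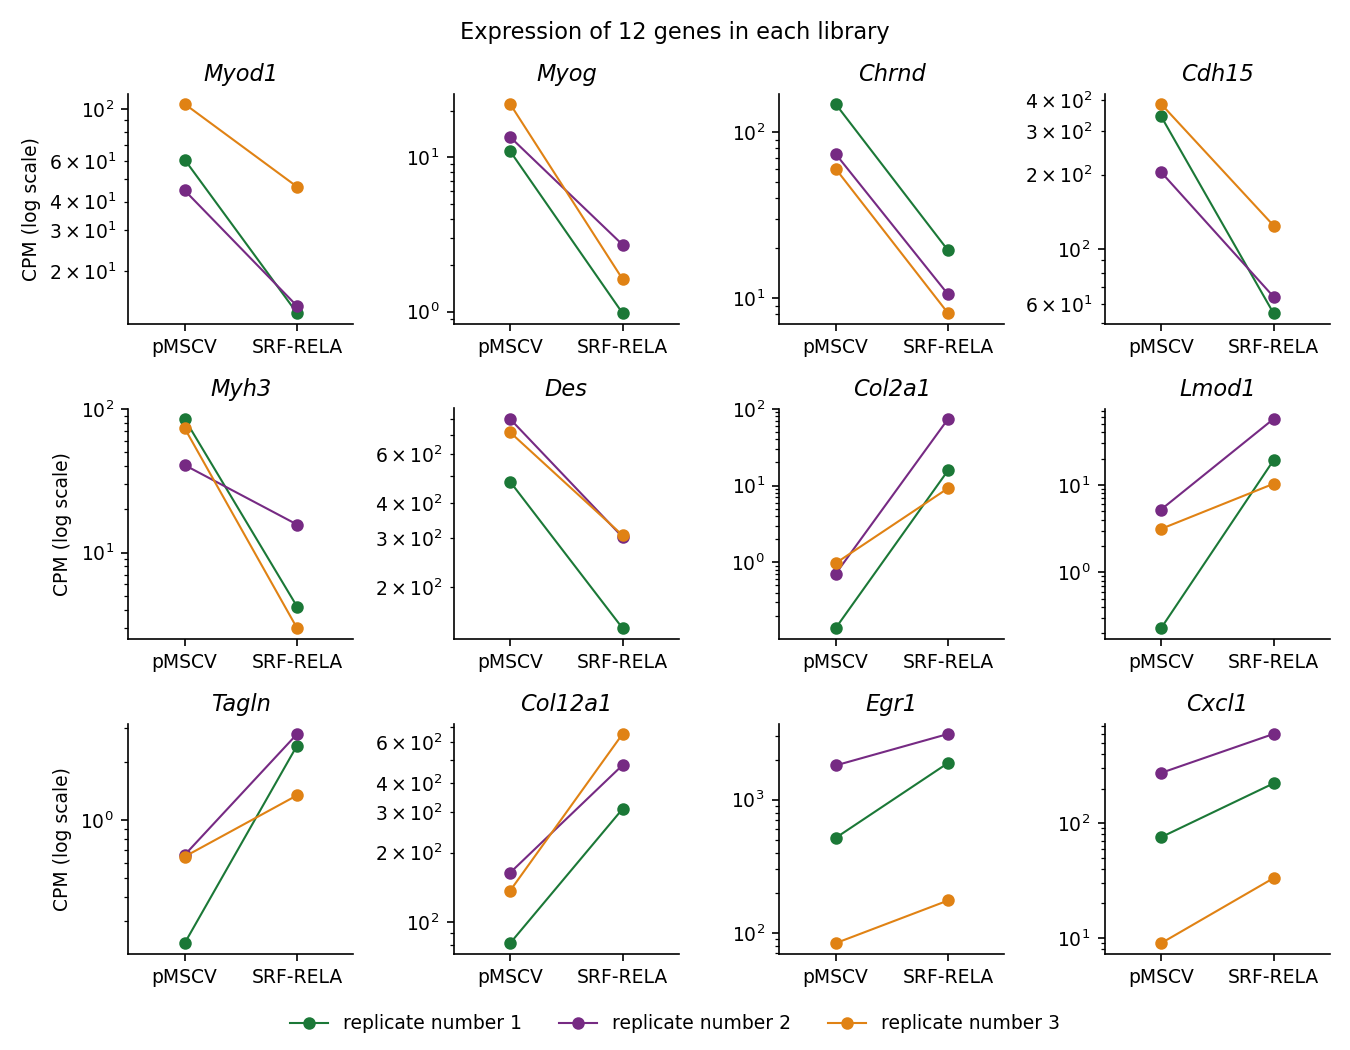
CPM on a log axis for 12 genes in each pMSCV and SRF-RELA library, with lines joining libraries of the same replicate number. Myod1, Myog, Chrnd, Cdh15, Myh3 and Des go down in all 3 pairs and Col2a1, Lmod1, Tagln, Col12a1, Egr1 and Cxcl1 go up, from starting levels that differ between replicate numbers, as for Egr1 (516, 1810 and 83.5 CPM in pMSCV).

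Contractile genes of smooth muscle, classical targets of SRF with myocardin-type cofactors, gave calls mostly in the other direction, though few. Of 16 measured members 3 were called higher (Tagln, Myh11 and Lmod1), against 2.85% of all genes tested. Called lower was 1 (Des, which skeletal myoblasts also express), against 3.21%, and the median was 0.61. The median was 1.93 in pair 1, 1.08 in pair 2 and -0.16 in pair 3. Lmod1, leiomodin, an actin nucleator of smooth muscle, had 0.229, 5.22 and 3.14 CPM in pMSCV and 19.1, 56.8 and 10.3 CPM in SRF-RELA, a change of 3.47 (SE 0.80, edgeR adjusted p = 0.035, but 0.196 in the fit of the 6 libraries). Myh11, the smooth muscle myosin heavy chain, lay at 0.137, 0.219 and 0.0922 CPM in pMSCV and 4.49, 14.0 and 0.325 CPM in SRF-RELA. Its rise of 4.96 (SE 0.96, edgeR adjusted p = 0.0158) came mainly from replicates 1 and 2. Tagln, transgelin, remained scarce (pMSCV 0.511 ± 0.244, SRF-RELA 2.20 ± 0.759 CPM, mean ± SD of 3 libraries), with a change of 2.10 (SE 0.50, edgeR adjusted p = 0.0326). Without SRF-RELA replicate 1, SRF-RELA replicate 2 or pMSCV replicate 1 edgeR called no member higher. Acta2, smooth muscle actin, had 220, 1585 and 2381 CPM in pMSCV and 2188, 3164 and 1880 CPM in SRF-RELA. It was higher in pairs 1 and 2 and lower in pair 3, and was not called (1.15, SE 0.62, edgeR adjusted p = 0.32). Cnn1, calponin, had the next largest fitted change of the list after Myh11, 4.70, and was not called (edgeR adjusted p = 0.099).

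Intermediate-filament desmin, counted in that list, went down with the skeletal genes: Des stood at 477, 802 and 719 CPM in pMSCV and 142, 302 and 306 CPM in SRF-RELA. The groups did not overlap, and the change was -1.47 (SE 0.21, edgeR adjusted p = 0.00401). The broad cytoskeletal targets of SRF showed little: 1 of 27 was called, Ankrd1, a stretch-responsive muscle gene, and it was lower (-0.85, SE 0.17, edgeR adjusted p = 0.0166). The median over the list was 0.08, and 6.07% of all genes tested were called in either direction. Actb (pMSCV 3173 ± 867, SRF-RELA 2969 ± 456 CPM, mean ± SD of 3 libraries) had a change of -0.08 (SE 0.18), and Vcl, vinculin, had one of 0.01 (SE 0.14). None of 8 measured SRF cofactors, among them Mrtfa (0.13), Mrtfb (0.20), Elk1 (-0.24) and Elk4 (0.21), was called, and the myocardin gene Myocd was not among the genes of the table.

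**Figure D3:**
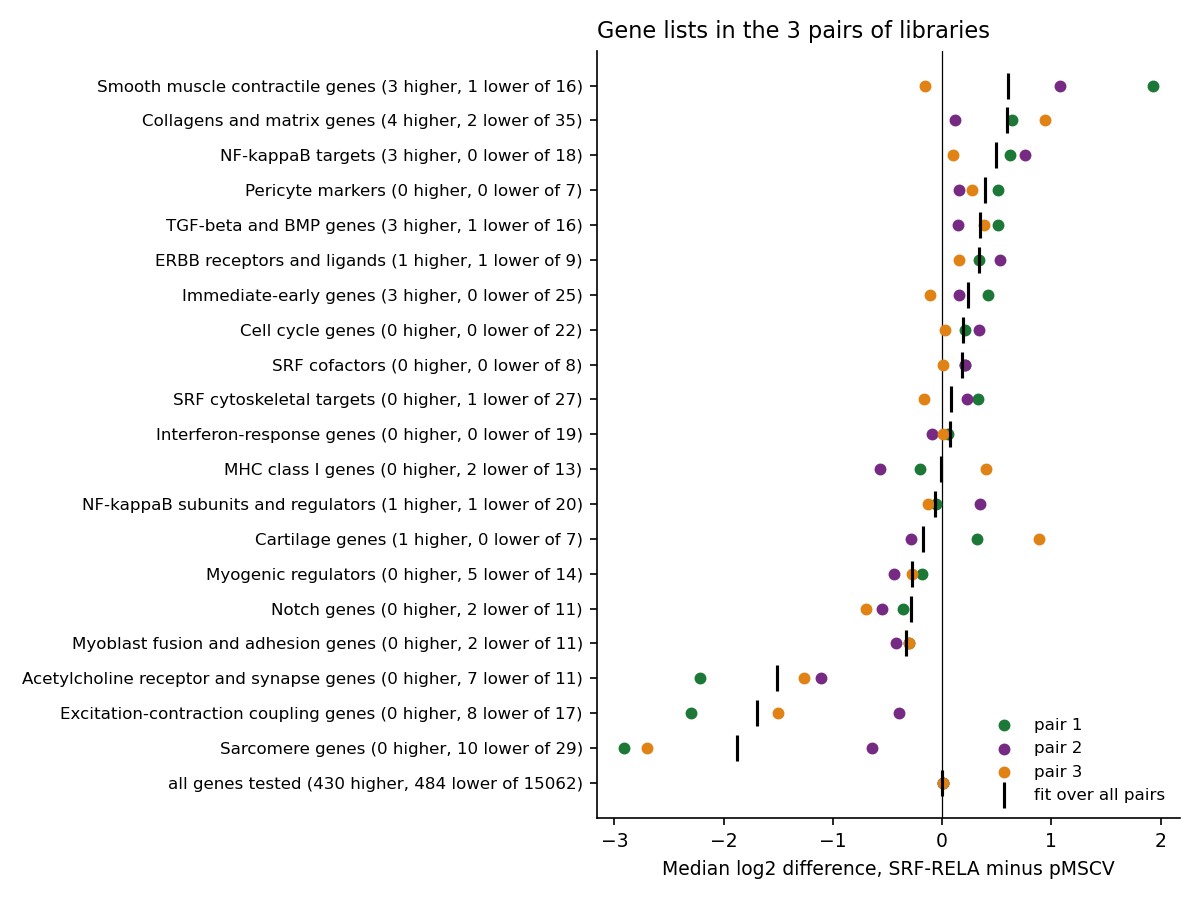
Median log2 difference of each gene list between SRF-RELA and pMSCV, in each same-numbered pair (coloured points) and in the fit over all pairs (black bar), with the number of members called in brackets; 0 is no difference. The sarcomere (-1.88), coupling (-1.69) and acetylcholine receptor (-1.51) lists lie below 0 in every pair, and the smooth muscle list lies above 0 in pairs 1 and 2 and at -0.16 in pair 3.

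Immediate-early genes, the other branch of SRF targets, showed 3 of 25 called higher (Egr1, Junb and Zfp36), against 2.85% of all genes tested. None was called lower, and the median was 0.23. Egr1, a zinc-finger factor induced within minutes by serum, stood at 516, 1810 and 83.5 CPM in pMSCV and 1888, 3121 and 175 CPM in SRF-RELA. Levels differed far more between replicate numbers than between lines, with number 3 lowest in both, so the groups overlapped although all pairs rose. The change was 1.23 (SE 0.23, edgeR adjusted p = 0.0115). Zfp36, which encodes the mRNA-destabilising protein tristetraprolin, had 59.7, 121 and 16.3 CPM in pMSCV and 203, 334 and 19.1 CPM in SRF-RELA. Pair 3 hardly differed, and the change was 1.17 (SE 0.24, edgeR adjusted p = 0.018). Junb, an AP-1 subunit, had a change of 1.06 (SE 0.21, edgeR adjusted p = 0.0164), and it lies in a stretch of chromosome 8, described at the end, in which many genes were higher. Fos, the partner of the JUN proteins, was nearly silent in replicate 3 of both groups (1.43 and 1.72 CPM). It went from 158 to 598 CPM in pair 1 and from 560 to 563 CPM in pair 2, and was not called (0.64, SE 0.54, edgeR adjusted p = 0.55). Without SRF-RELA replicate 1 or without pMSCV replicate 1 edgeR called no immediate-early gene. No member of this list was called against SRF or SRF-ICA1L in the main fit.

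A CArG box, searched on both strands in the promoter windows, occurred in 1.65% of all genes with a window. It occurred in 8 of 328 genes called higher (2.44%) and in 6 of 345 called lower (1.74%). In the combined SRF target, smooth muscle and immediate-early lists it occurred in 9 of 55 genes with a window (16.4%). The window of Zfp36 is given as a called gene with a match, which begins 58 bases before the start and stands in capitals (RefSeq, GRCm38.p6, 5′ to 3′).
Zfp36, chr7:28379179-28379478, minus strand: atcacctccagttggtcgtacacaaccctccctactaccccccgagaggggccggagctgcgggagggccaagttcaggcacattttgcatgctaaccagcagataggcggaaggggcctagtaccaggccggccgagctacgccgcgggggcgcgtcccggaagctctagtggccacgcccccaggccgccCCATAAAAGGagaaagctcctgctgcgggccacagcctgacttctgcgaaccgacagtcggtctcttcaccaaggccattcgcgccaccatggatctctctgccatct

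Targets of NF-kappaB were higher in part. Of 18 measured members 3 rose (Cxcl1, Csf1 and Cx3cl1), against 2.85% of all genes tested, and none fell. The median was 0.50, with medians of 0.62, 0.76 and 0.10 in pairs 1 to 3. Cxcl1 (chr5:90891241-90893115), a chemokine for neutrophils, stood at 75.3, 273 and 8.99 CPM in pMSCV and 222, 597 and 33.2 CPM in SRF-RELA. As with Egr1 the level differed between replicate numbers and each pair rose, by 1.5 in the fit on the log2 scale (SE 0.27, edgeR adjusted p = 0.0115). Csf1, the growth factor of macrophages, went from 189, 313 and 379 CPM to 655, 577 and 614 CPM. Its groups did not overlap, and the change was 1.08 (SE 0.26, edgeR adjusted p = 0.0345). Cx3cl1, a membrane-bound chemokine, rose by 0.82 (SE 0.17, edgeR adjusted p = 0.0171), and it too lies in the chromosome 8 stretch. Il6 had 0.870, 5.05 and 0.138 CPM in pMSCV and 2.25, 12.9 and 0.278 CPM in SRF-RELA, higher in each pair but not called (1.33, SE 0.45, edgeR adjusted p = 0.109). Ccl2 (0.55), Vcam1 (0.35) and Sod2 (0.12) did not pass either. Without pMSCV replicate 1 edgeR called none of the list, and without any 1 SRF-RELA library it called 1.

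Regulators of the pathway gave few calls. Of 20 measured subunits and regulators 1 was called higher, 1 lower, and the median was -0.07. Over all genes tested, 2.85% were called higher and 3.21% lower, so these counts show no shift of the list. No member was called in each of the 6 fits that left out one library. Nfkbid, a nuclear inhibitor protein, rose by 1.83 (SE 0.40, edgeR adjusted p = 0.0236) but from 0.196 ± 0.050 to only 0.717 ± 0.262 CPM (SD, n = 3 each). Traf1, a signalling adaptor, went from 10.5, 6.80 and 8.81 CPM to 2.0, 1.76 and 3.76 CPM, a change of -1.86 (SE 0.37, edgeR adjusted p = 0.0164). Nfkbia, the feedback inhibitor often read as a sign of NF-kappaB activity, had 58.3, 163 and 31.8 CPM in pMSCV and 101, 315 and 31.2 CPM in SRF-RELA. It was higher in pairs 1 and 2, level in pair 3, and not called (0.60, SE 0.23, edgeR adjusted p = 0.156). Relb, with a change of -0.13 (SE 0.20), and Nfkb1, with 0.19, were not called. A kappaB site occurred in 12.2% of all genes with a promoter window, 12.5% of those called higher and 12.2% of those called lower. In the target list it occurred in 6 of 12 such genes. The window of Cxcl1 is shown with its pair of overlapping matches, which begin 71 and 70 bases before the start, in capitals (RefSeq, GRCm38.p6, 5′ to 3′).
Cxcl1, chr5:90890995-90891294, plus strand: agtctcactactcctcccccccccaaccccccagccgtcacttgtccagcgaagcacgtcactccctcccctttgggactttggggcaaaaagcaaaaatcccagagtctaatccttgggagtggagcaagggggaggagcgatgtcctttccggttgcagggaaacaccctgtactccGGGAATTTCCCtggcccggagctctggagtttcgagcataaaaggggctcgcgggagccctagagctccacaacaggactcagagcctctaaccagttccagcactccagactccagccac

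The largest rise among the genes named by rule was in a cartilage collagen. Col2a1 (chr15:97975602-98004695), the fibril collagen of cartilage, had 0.137, 0.702 and 0.968 CPM in pMSCV and 15.8, 74.0 and 9.23 CPM in SRF-RELA. Every SRF-RELA library lay well above every pMSCV library, and the change was 5.44 (SE 0.57, edgeR adjusted p = 0.00217, but 0.0692 when only these 6 libraries were fitted). It was the only one of 7 measured cartilage genes to be called. Sox9, the factor that directs cartilage formation, stood at 157, 199 and 135 CPM in pMSCV and 109, 244 and 112 CPM in SRF-RELA, with no call (-0.17, SE 0.14). Acan, Col9a1, Comp and Hapln1 were not among the genes of the table.

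Among collagens and matrix genes 4 of 35 were called higher, 2 lower, and the median was 0.59. The shares over all genes tested were 2.85% higher and 3.21% lower. Col12a1, a collagen that coats fibrils, rose from 81.2, 164 and 137 CPM to 309, 477 and 651 CPM, a change of 1.91 (SE 0.17, edgeR adjusted p = 0.000958). Lox, which cross-links collagen, rose from 455 ± 80.3 to 970 ± 132 CPM (SD, n = 3 each), and both genes were called in each of the 6 fits that left out one library. Col5a2, a fibril-forming collagen, rose by 1.02 (SE 0.20) and Tnxb, tenascin-X, by 2.04 (SE 0.44). Col1a1 had a change of 1.36 and an adjusted p of 0.0691. Lama2, the laminin chain of the muscle basement membrane, fell by 1.42 (SE 0.26). Hmcn1, hemicentin, went from 21.1, 7.90 and 8.02 CPM to 0.244, 1.27 and 0.139 CPM, which was the largest fall among the genes named by rule (-4.28, SE 0.70, edgeR adjusted p = 0.00846). Of 16 TGF-beta and BMP genes 3 rose, the inhibitors Smad6 (1.54, SE 0.28) and Grem1 (0.92, SE 0.17) and the matrix protein Ltbp2 (1.12, SE 0.16), and the BMP antagonist Nog fell by 2.19 (SE 0.47) from 1.93 ± 0.68 CPM.

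Receptors and signalling genes were among the other large changes. Fgfr2, a fibroblast growth factor receptor, rose from 6.32, 6.28 and 1.71 CPM to 24.7, 33.0 and 16.4 CPM, with no overlap (2.49, SE 0.25, edgeR adjusted p = 0.00128). The RNA-binding protein gene Bicc1 went from 11.6, 21.4 and 7.79 CPM to 40.8, 108 and 51.6 CPM (2.28, SE 0.26, edgeR adjusted p = 0.00256). Ankrd44, an ankyrin-repeat protein, went from 14.0, 17.2 and 11.2 CPM to 89.9, 207 and 30.4 CPM (2.59, SE 0.35, edgeR adjusted p = 0.00402). Further rises named by rule were Wnt4, a Wnt ligand (2.27), Pygo1, a Wnt co-activator (2.42), Abcb1a, a drug efflux pump (2.45), the forkhead factor Foxq1 (2.48), Rab27a, a vesicle GTPase (2.35), and Xlr3c (2.48). Xlr3c belongs to a family of near-identical X-linked copies, so its reads may be shared with them. On the falling side Erbb3, the neuregulin receptor partner, dropped from 29.1, 9.74 and 14.3 CPM to 3.37, 2.67 and 5.15 CPM (-2.20, SE 0.37, edgeR adjusted p = 0.00888). Erbb3 was similarly low in SRF (mean 4.42 CPM) and SRF-ICA1L (mean 4.60 CPM), and was not called against SRF (-0.29, SE 0.37, edgeR adjusted p = 0.722). Its ligand gene Nrg1 rose from 34.8 ± 12.7 to 53.5 ± 6.70 CPM (SD, n = 3 each; 0.69, SE 0.15, edgeR adjusted p = 0.023). In the Notch pathway 2 of 11 genes fell, against 3.21% of all genes tested, and none rose. The target Hey1 went from 24.5, 107 and 12.2 CPM to 3.86, 25.0 and 4.54 CPM (-2.10, SE 0.29, edgeR adjusted p = 0.00402), and the ligand Jag2 fell by 1.43 (SE 0.33). Synpo2l, a Z-disc protein, and Xirp2, a relative of Xirp1, fell by 3.22 (SE 0.30) and 3.12 (SE 0.43). Syt1, a calcium sensor of vesicle release, fell by 3.66 (SE 0.46), F2rl1, a protease-activated receptor, by 3.02 (SE 0.59), and Ppp2r2b, a phosphatase subunit, by 2.95 (SE 0.60).

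Chromosomal clusters stood out among the lower genes, and they were chosen here after their values were seen. All 8 measured genes of the Hox B cluster (chr11:96194316-96347930), from Hoxb13 to Hoxb3, were called lower, with a median of -2.42 and changes from -3.42 to -1.89. Hox genes encode the factors that carry position along the body axis, and their expression in cultured cells keeps a record of origin. Hoxb9 went from 52.2, 19.6 and 9.96 CPM to 8.40, 3.35 and 0.371 CPM (-3.13, SE 0.47, edgeR adjusted p = 0.00601). None of 11 Hox A genes (median -0.04) and none of 9 Hox C genes (median 0.32) was called. The single Hox D gene in the table, Hoxd9, had 1.19, 0.614 and 0.369 CPM in pMSCV and 0, 0.136 and 0 CPM in SRF-RELA, where no library held more than 3 counts, and it was not called. Without SRF-RELA replicate 1 edgeR called 1 of the 8 Hox B genes, Hoxb9. On chromosome 7 the neighbouring imprinted genes of the Peg3 domain fell together. Peg3, a paternally expressed zinc-finger gene, went from 618, 323 and 332 CPM to 70.5, 100.5 and 102.3 CPM (-2.21, SE 0.30, edgeR adjusted p = 0.00395). Zim1 fell by 2.94 (SE 0.44) and Usp29 by 2.44 (SE 0.27). The reference lines were also low: mean Peg3 was 424 CPM in pMSCV, 201 in SRF, 153 in SRF-ICA1L and 91.1 in SRF-RELA. Mean Zim1 was 57.9, 18.2, 12.1 and 7.42 CPM in the same order. None of the Peg3 domain genes was called against SRF (edgeR adjusted p = 0.105 to 0.191) or against SRF-ICA1L.

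**Figure D4:**
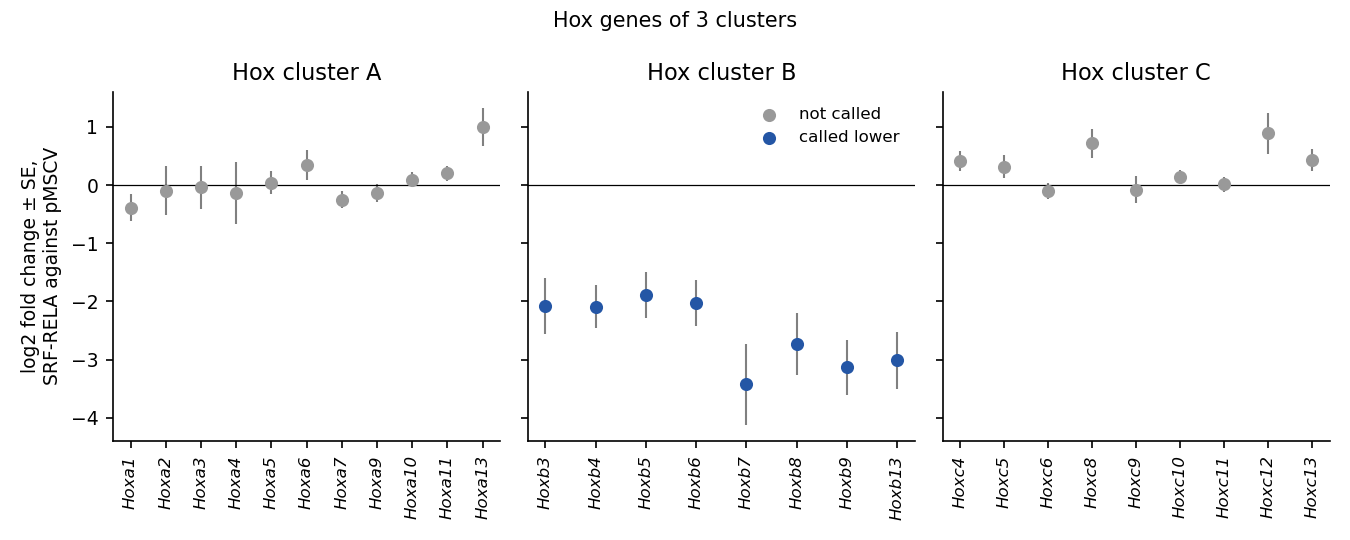
Log2 fold change of SRF-RELA against pMSCV for each measured gene of Hox clusters A, B and C, with bars of ± 1 SE; blue marks genes called lower. All 8 Hox B genes lie between -3.42 and -1.89, and the A and C genes lie between -0.39 and 0.997.

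Antigen presentation, interferon and proliferation genes gave few calls. H2-K1, a classical MHC class I gene, fell from 64.5, 70.6 and 48.5 CPM to 39.1, 32.4 and 24.1 CPM (-0.95, SE 0.17, edgeR adjusted p = 0.0113), and its relatives among the class I genes are close enough in sequence that reads may be shared. Its mean was as low in SRF (28.7 CPM) and SRF-ICA1L (28.3 CPM) as in SRF-RELA (31.9 CPM). H2-K1 was not called against SRF (0.14, SE 0.17, edgeR adjusted p = 0.723). Nlrc5, the activator of class I genes, fell by 1.28 (SE 0.33, edgeR adjusted p = 0.0466). The other 11 of 13 class I genes, B2m and Tap1 among them, were not called, and the median was -0.01. Of all genes tested, 3.21% were called lower. None of 19 interferon-response genes, none of 7 pericyte markers and none of 22 cell cycle genes was called. Mki67, a marker of cycling cells, had 618, 231 and 766 CPM in pMSCV and 737, 440 and 1041 CPM in SRF-RELA, higher in each pair but with overlapping groups (0.50, SE 0.26, edgeR adjusted p = 0.294). Pdgfrb, a pericyte receptor, had a change of 0.95 and an adjusted p of 0.0543.

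The fusion line was then set against the line with SRF itself. The comparison is of lines, and the level of the fusion was not measured, so dose, line and fusion cannot be told apart. In the same fit edgeR called 99 of 15062 genes (0.657%), 75 higher in SRF-RELA (0.498%) and 24 lower (0.159%). The unadjusted p was under 0.05 for 2564 genes. Srf itself was lower in the fusion line (-3.15, SE 0.33, edgeR adjusted p = 0.00698). Col2a1 was higher by 4.0 (SE 0.50, edgeR adjusted p = 0.0109), against 0.721, 3.36 and 1.33 CPM in the SRF libraries. Ankrd44 (2.63), Abcb1a (2.34), Xlr3c (2.20), Pygo1 (2.05) and Bicc1 (1.57) were also higher than in SRF. Il6 was higher by 2.85 (SE 0.49, edgeR adjusted p = 0.0353), although SRF-RELA replicate 3 had just 0.278 CPM, and Cx3cl1 was higher by 1.04. Among muscle genes Chrnd (-1.10, SE 0.19, edgeR adjusted p = 0.0353), Cdh15 (-1.31), Synpo2l (-1.53) and Xirp1 (-1.96) were lower than in SRF. Chrnd stood at 34.1, 25.8 and 18.8 CPM in SRF, between the pMSCV and SRF-RELA levels of the same number. Myod1 (-0.84, edgeR adjusted p = 0.0885), Myog (-0.84) and Myh3 (-0.60) were not called against SRF, and the sarcomere list had a median of -0.12 there. Without SRF-RELA replicate 1 edgeR called 5 genes against SRF, and without the block it called 0.

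Against SRF-ICA1L, another fusion line, edgeR called 0 genes, while 280 had an unadjusted p below 0.05. DESeq2 also called 0, with 255. The widest gaps among the named genes were Myh11 (3.70, SE 0.89) and Col2a1 (1.96, SE 0.44), both higher in SRF-RELA. Col2a1 stood at 4.01, 12.7 and 4.69 CPM in SRF-ICA1L, below the same-numbered SRF-RELA library each time. For Chrnd the difference was -0.47 (SE 0.19) and for Cxcl1 0.71 (SE 0.27), and neither was called. The Hox B genes had a median of 0.11 against SRF-ICA1L and -1.57 against SRF, with no call in either.

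A stretch of chromosome 8 held many of the higher genes. It was chosen after values were seen, as the 80 to 95 Mb part whose 5 Mb windows had the highest medians among 314 windows across the genome. In it 60 of 145 tested genes were called higher (41.4%) and 2 lower, against 370 of 14917 genes called higher elsewhere (2.48%). Of its 112 genes with at least 1 CPM, 104 had a positive change, with a median of 0.64 and medians of 0.73, 0.49 and 0.64 in pairs 1 to 3. The other windows had medians between -0.39 and 0.37. By library, the median level in the stretch relative to the pMSCV mean was 0.71, 0.69 and 0.41 on the log2 scale in SRF-RELA and 0.03, 0.18 and -0.23 in pMSCV. It was 0.51, 0.59 and 0.19 in SRF-ICA1L and 0.32, 0.20 and -0.19 in SRF, so each line lay above pMSCV of the same number, SRF by the least. Genes called higher in it include Vps35, of endosomal sorting, the chaperone gene Dnajb1 and the peroxisomal protease gene Lonp2. Junb and Cx3cl1, counted above as called higher, lie in the stretch, as do Ier2 (0.89) and Cyld (0.40), which were not called, and Nlrc5, which fell. The part of the stretch in their changes was not tested. Further along chromosome 8, the 5 Mb windows from 105 to 125 Mb, also picked after values were seen, were lower. Their medians were -0.24, -0.23, -0.28 and -0.27, and each lay below 0 in every pair. Cdh15, counted above as called lower, lies in the last of them, and the part of that shift in its change was not tested.

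**Figure D5:**
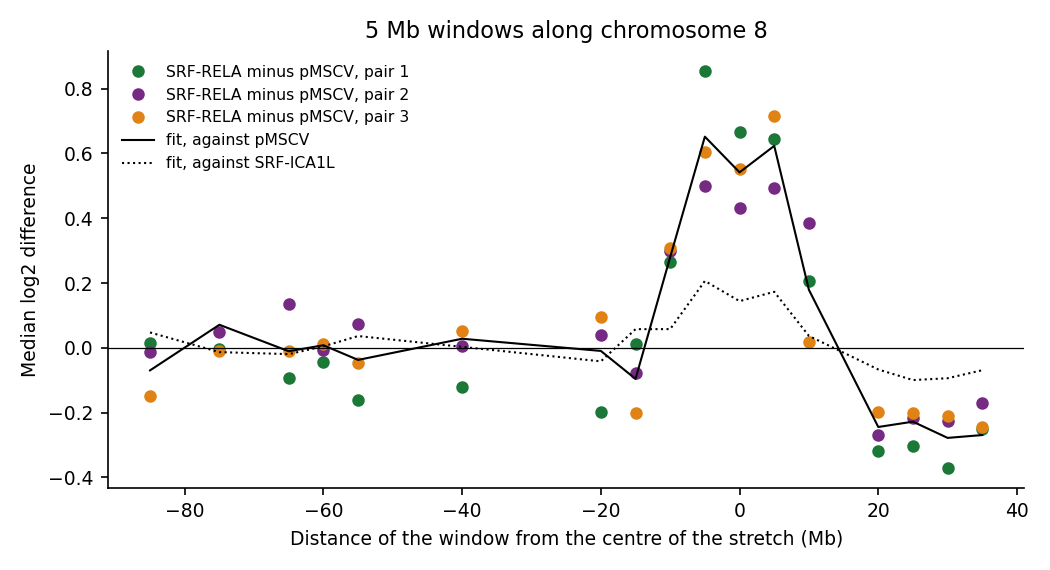
Median log2 difference of genes with at least 1 CPM in 5 Mb windows of chromosome 8, placed by distance in Mb from the centre of the stretch; points are the 3 pairs of SRF-RELA and pMSCV, and lines are the fits against pMSCV (solid) and SRF-ICA1L (dotted). The 3 windows around the centre are high in every pair, and the stretch has a median of 0.64 against pMSCV and 0.18 against SRF-ICA1L.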

How the data were processed

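RNA-seq libraries of C2C12 lines were analysed from gene-level raw counts deposited by the authors. FastQC 0.11.8, Trimmomatic 0.39, HISAT2, featureCounts, Subread 2.0.0 and GRCm38 are named in the submitters' processing notes. The annotation and strand setting are not given in the sources used here, so overlapping, antisense and near-identical genes may share counts. Every gene of the deposited table reached 10 counts in at least 3 libraries. Within groups, libraries differed by 66.8 to 189 in chi-square per degree of freedom, so none was a duplicate.

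Counts were scaled by TMM and tested with edgeR 4.0.16 (robust quasi-likelihood, R 4.3.3, limma 3.58.1) in 12 libraries (pMSCV, SRF, SRF-ICA1L and SRF-RELA), with terms for group and replicate number and Benjamini-Hochberg adjustment over 15062 genes. The labels do not say what a number stands for. The pairing comes from the data: deviations from group means correlated at 0.462 to 0.849 between same-numbered libraries and at 0.159 at most otherwise. These 12 libraries were kept because their numbers had paired in an earlier fit of these data. The correlations therefore describe the pairing and are no independent support for the block. The biological coefficient of variation was 18.6%, and the fit was tested on simulated data.

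Named were Srf, Rela, 25 set genes, the 12 largest rises and 12 largest falls among called genes with the same sign in all pairs and at least 50 counts in each library of the higher group, and up to 6 called members of each list. Some results under this rule are not reported here. Genes outside it are list members named to describe their list, or are said to be chosen after their values were seen. The lists, the rule and the fit were chosen with earlier results of these data known. The alternatives were fits without the block or with 6 or 17 libraries, DESeq2 1.42.0, RLE scaling, a 1 CPM minimum, and leaving out libraries. The last of these, leaving a replicate number out of all groups, was added after seeing the data. Gene positions are from GENCODE on GRCm38.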

Additional observations from a re-analysis of the deposited data

How the results depend on the processing

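The number of genes called moved with the settings. SRF-RELA against pMSCV gave 914 genes with the replicate block in 12 libraries and 471 with the replicate block in only the 6 libraries compared, of which 416 were shared. It gave 0 without the replicate block in 12, 6 or 17 libraries (1378, 904 and 1212 at an unadjusted p under 0.05 in edgeR) and 0 with the replicate block in all 17 (1812). DESeq2 with the replicate block gave 1602, RLE scaling 926 and the 1 CPM minimum 907. Leaving out 1 library gave 238 to 1178 genes, and leaving replicate number 1, 2 or 3 out of all groups gave 1, 1015 and 374. Against SRF the count was 99, then 0 without the block, 649 in DESeq2, 5 to 38 without 1 SRF-RELA library, and 0, 41 and 10 without number 1, 2 or 3. Against SRF-ICA1L it was 0, and 1 without SRF-RELA replicate 3 or 2 without number 3. Fewer samples enter the fits that leave libraries out, and otherwise the cause was not tested. All 914 genes kept their sign in each setting that tested them. Of 72 called genes named by rule, 30 were called in all 6 fits that left out 1 library. Among the 86 genes named by rule, signs turned only in 3 uncalled genes. Signs of the other uncalled genes were not followed. Vcl went from 0.01 to -0.0017 with 6 libraries, -0.0028 with 17 and -0.19 without number 2, and lay between -0.13 and 0.13 in the fits without 1 library. Actb went from -0.08 to 0.075 without number 3, and lay between -0.23 and 0.055 without 1 library. Sox9 went from -0.17 to 0.0063 without number 1. The medians of the class I, cartilage, interferon, NF-kappaB regulator and cell cycle lists changed sign in at least 1 setting.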

Other observations

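Other genes outside the lists, chosen after their values were seen, were called both against pMSCV and against SRF. Lbx1, a homeobox factor of limb muscle precursors, stood at 14.8, 5.62 and 1.71 CPM in pMSCV, 8.84, 3.13 and 0.645 CPM in the SRF line and 2.44, 0.949 and 0.232 CPM in SRF-RELA. At each replicate number it was highest in pMSCV and lowest in SRF-RELA, with log2 changes of -2.65 against pMSCV (SE 0.23, edgeR adjusted p = 0.000958) and -1.71 against SRF (SE 0.23, edgeR adjusted p = 0.0131). Gdf15, a stress-induced cytokine, had changes of -1.47 and -1.18 in the same comparisons. Abcg1, a cholesterol exporter, went from 2.29, 2.90 and 1.43 CPM in pMSCV to 10.3, 8.996 and 4.27 CPM in SRF-RELA, with changes of 1.80 against pMSCV and 1.91 against SRF (edgeR adjusted p = 0.00316 and 0.00865). Sulf2, which trims sulphate from heparan chains, had changes of 1.57 and 2.39, and Ucp2, a mitochondrial carrier, 1.48 and 1.84. Egr4, a relative of Egr1, was called higher against both, at 3.91, 7.64 and 0.0464 CPM in SRF-RELA. Every pMSCV library held at most 0.137 CPM of it, and the third SRF-RELA library lay within the pMSCV range, so no fold is given.

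Some neighbouring genes were called in the same direction. Along the chromosomes there were 14 runs of at least 3 adjacent tested protein-coding genes with the same call, and 7 of them lay in the chromosome 8 stretch. The longest, of 8 genes, was the Hox B cluster. How many runs would arise without any clustering was not worked out. Col2a1 closed a run of 3 higher genes on chromosome 15 with Tmem106c and Vdr, the vitamin D receptor. Vdr stood at 11.9, 84.5 and 46.8 CPM in pMSCV and 62.9, 204 and 81.5 CPM in SRF-RELA (1.40, SE 0.30, edgeR adjusted p = 0.0252). A run of 3 lower genes on chromosome 10 held Popdc3 and Bves, which encode membrane proteins of striated muscle that bind cyclic AMP. Popdc3 fell from 160, 168 and 151 CPM to 60.3, 58.1 and 75.2 CPM, with no overlap (-1.32, SE 0.13, edgeR adjusted p = 0.00128), and Bves fell by 0.95 (SE 0.19).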
